A study of Danio rerio with 5 samples.

Results

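The protein subunits of the cytosolic ribosome are encoded by the rpl genes of the large subunit and the rps genes of the small subunit. They were taken by name from a table that pairs gene identifiers with symbols: names starting with rpl or rps and a digit, and the stalk genes rplp0, rplp1 and rplp2l, without the rps6k kinases and without pseudogenes. The name table held 84 such genes, of which 74 were in the count tables, out of 26158 genes in all. The other 10 were not analysed here. Of the 74, 41 carried large-subunit names and 33 small-subunit names, and 73 passed the filter on low values, a mean of at least 1 CPM over the libraries (CPM is the count scaled to library size). Names are written here in lower case, and the identifier is given where 2 genes share a name.

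The data are poly(A)-selected, strand-specific RNA-seq of whole zebrafish embryos at 6 hours after fertilization (shield stage), with 1 library from 15 pooled embryos in each of 5 groups. In 3 groups MZdicer embryos (dicer hu896/hu896), which lack maternal and zygotic Dicer, the enzyme that matures most microRNAs, had been injected at the 1-cell stage with 1 nl of a 25 µM stock of a miR-430 molecule. The injected forms were a hairpin that Argonaute2 cuts in place of Dicer and that carried 3 phosphorothioates (3xPS hairpin), the same kind of hairpin without them (hairpin), and an ordinary duplex (duplex). The fourth group was MZdicer embryos with no injection, and the fifth was wild-type embryos of strain TU/AB/TL/TLF, also not injected. No group received an injection without miR-430, so the injection itself and the miR-430 it carried cannot be told apart, and the labels give MZdicer and wild type different strains.

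The libraries held 14867084 gene counts in MZdicer and 24123349 to 26300080 in the other 4. The labels name the dicer allele but not its lesion, so the level of dicer1 mRNA is no direct check of them. It stood at 23.05 CPM with the 3xPS hairpin, 20.1 with the hairpin, 22.5 with the duplex, 22.7 in MZdicer and 36.5 in wild type. Markers of later tissues that a gastrula should lack summed to 2.05 to 4.08 CPM over 6 genes, with cryaa at 0 in every library, while 9 shield-stage genes summed to 4751 to 7856 CPM. Of the 6 markers only elavl3 passed the filter. It had 3.23 CPM with the 3xPS hairpin, 2.31 with the hairpin, 2.76 with the duplex, 3.08 in MZdicer and 0.629 in wild type. MZdicer was thus 4.89-fold above wild type for elavl3 (interval 2.72 to 9.25), from 46 and 16 counts. Since each group has a single library, groups were not tested against each other and no p-value is given. Intervals are 95% intervals of the counts, which cover counting error only.

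Ribosomal protein mRNAs are among the most abundant mRNAs of growing cells, and their products are made in equal numbers because each mature ribosome holds 1 copy of most of them. In vertebrates they belong to the TOP mRNAs, which start with a run of pyrimidines and whose translation is tuned by nutrient signalling through mTOR. The zebrafish egg carries a store of ribosomes and of maternal mRNAs, and miR-430, made from the first zygotic transcripts, speeds the clearance of many maternal mRNAs.

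The ribosomal protein genes took the largest share of the library in wild type and the smallest with the 3xPS hairpin. Their 74 genes held 1.49% of all gene counts with the 3xPS hairpin, 1.88% with the hairpin, 1.75% with the duplex, 1.57% in MZdicer and 2.06% in wild type. MZdicer thus lay 1.32-fold below wild type (interval 1.31 to 1.32), while the 2 forms without phosphorothioates lay between MZdicer and wild type. The hairpin share was 1.2-fold that of MZdicer and the duplex share 1.12-fold, whereas the 3xPS hairpin share was 1.05-fold lower than that of MZdicer and 1.26-fold lower than that of the unmodified hairpin.

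**Figure D1:**
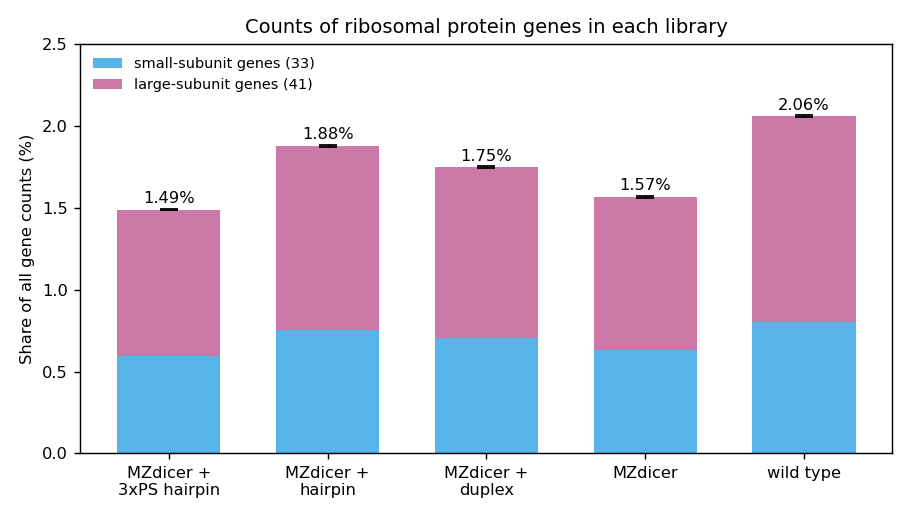
Share of all gene counts (y axis, percent) taken by the 41 large-subunit and 33 small-subunit genes, stacked, in each of the 5 libraries (x axis); error bars are 95% exact binomial intervals of the total and cover counting error only. The total is 1.49% with the 3xPS hairpin and 2.06% in wild type, and the large-subunit genes hold the greater part in every library.

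The share was lower in MZdicer for both subunits. The large-subunit share was 1.34-fold lower in MZdicer than in wild type and the small-subunit share 1.28-fold lower. The ratio of large-subunit to small-subunit counts was 1.51 with the 3xPS hairpin, 1.49 with the hairpin, 1.49 with the duplex, 1.49 in MZdicer and 1.56 in wild type. The large-subunit genes therefore held slightly more of the counts in wild type than in any of the 4 MZdicer libraries. The small-subunit gene rps2 alone held 1.35% of the counts of the set in wild type, against 2.05% to 2.38% in the MZdicer libraries. The ratio without rps2 was not computed.

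Gene by gene, most of the set shared 1 order of the libraries. Wild type was the highest of the 5 libraries for 70 of the 73 measured genes (95.9%), against 36.8% of all 14097 measured genes. The 3xPS library was the lowest for 63 of 73 (86.3%), against 15.3% of all measured genes. The full order wild type, hairpin, duplex, MZdicer, 3xPS hairpin, from high to low, was met by 52 of 73 (71.2%) and by 2.29% of all measured genes. This order was chosen after the data were seen and is that of the set's own shares of the counts. Its count therefore describes how evenly the set follows its own total and is no separate support for the order. It was not counted for 242 other genes that are short and abundant, as defined below. Of them 74.8% were also lower in MZdicer than in wild type, and 90.1% lower with the 3xPS hairpin than with the hairpin. Against MZdicer, 82.2% of them were higher with the hairpin, 73.1% higher with the duplex and 65.3% lower with the 3xPS hairpin. These libraries are compared with each other in turn, so the orders within a gene are not independent, and genes of 1 library are not replicates of a condition.

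Per length, the median level of the 73 genes was 270.1 RPKM (reads per kilobase of gene length, scaled to the library total) with the 3xPS hairpin, 349.9 with the hairpin, 311 with the duplex, 285 in MZdicer and 365 in wild type. The highest mean RPKM belonged to rpl12, which binds at the base of the stalk, followed by rps14, rps7, rpl7a and rpl29. For rpl12 the levels were 652 RPKM with the 3xPS hairpin, 819 with the hairpin, 663 with the duplex, 672 in MZdicer and 981 in wild type. At the other end, rpl13a is low per length because its gene model has 5590 bases, against a median of 745 over the 73 genes. By counts alone rpl13a was an ordinary member of the set, at 257 CPM with the 3xPS hairpin, 318 with the hairpin, 299 with the duplex, 268 in MZdicer and 373 in wild type.

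**Figure D2:**
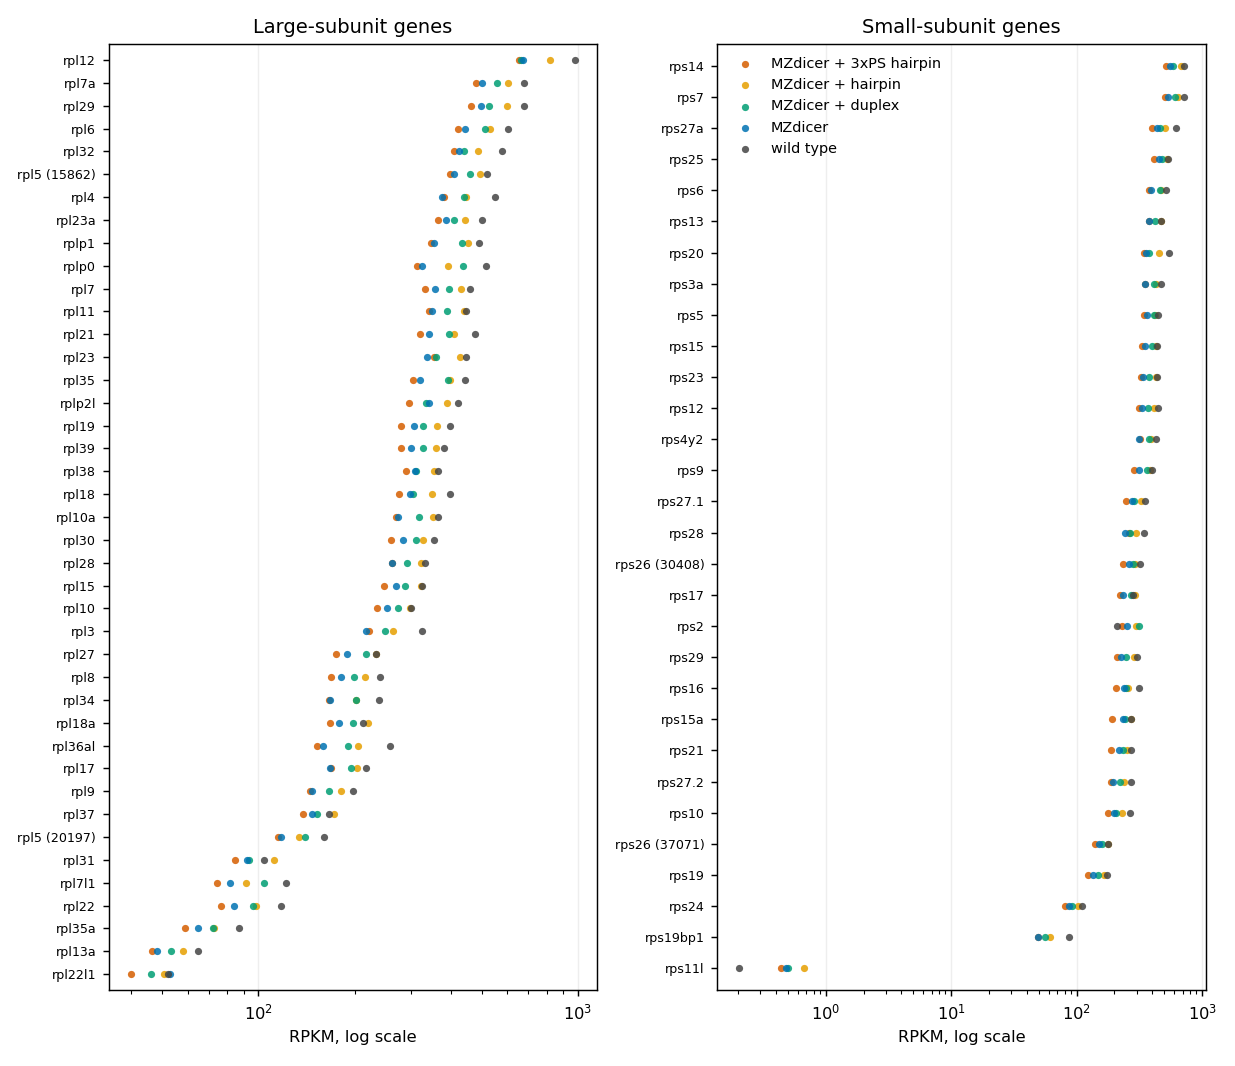
RPKM (x axis, log scale) of 71 of the 74 genes (y axis, ordered by mean RPKM) in the 5 libraries, large-subunit genes on the left and small-subunit genes on the right; 1 point is 1 library, and genes that share a name carry the last digits of their identifier. The wild-type point lies farthest right for most genes, while rps2 and rps11l in the right panel have it farthest left.

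In MZdicer against wild type the ribosomal protein genes stood lower as a group by a small and even amount. The median log2 ratio of the 73 genes was -0.44 and 71 of them lay below 0, a direction held by 49.0% of all measured genes, whose median was 0.02. At the rule used for calls, at least 2-fold with a counting interval that leaves out equality, 1 of 73 was called higher and 0 lower, against 16.3% of all measured genes called higher and 5.81% called lower. The 1 call was lost (0 higher) with a mean of at least 10 CPM, with a pseudocount of 1, with libraries thinned to the smallest total and under upper-quartile factors, which gave 1 call lower. With the threshold lowered to 1.2-fold, a choice made after the ratios were seen, 68 of 73 were lower and 1 higher, against 30.6% and 35.3% of all measured genes. At 1.5-fold 8 were lower, against 16.6% of all measured genes.

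The spread among the genes was narrow. The SD of the log2 ratio over the 73 genes was 0.234 in MZdicer against wild type, while over all measured genes it was 0.951. Without the 1 gene called at 2-fold, a choice made after seeing the data, the first value was 0.148. In the other 6 comparisons the SD over the 73 genes was 0.079 to 0.152, while over all measured genes it was 0.293 to 0.575. The 242 short abundant other genes, defined below, had an SD of 0.543 in MZdicer against wild type. Their SD in the other 6 comparisons was 0.142 to 0.347. In each of the 7 comparisons this lay between the SD of the 73 genes and that of all measured genes. Part of the contrast with all measured genes was therefore shared by other short abundant genes. Low genes carry more counting error, and the 73 genes had a median mean level of 236 CPM against 14.0 CPM over all measured genes; the part of abundance in the spread was not tested.

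Short and abundant mRNAs of other kinds also stood lower in MZdicer. For 242 genes outside the set with a mean of at least 100 CPM and a length of at most 1500 bases, limits chosen after the data were seen, the median log2 ratio in MZdicer against wild type was -0.31. Over all 3739 measured genes of at most 1500 bases it was -0.17. The 242 genes had a median length of 1154.5 bases, against 745 for the 73 genes, so they were not matched in length. The part of gene length and of RNA quality in the ratio of the ribosomal protein genes was not tested.

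**Figure D3:**
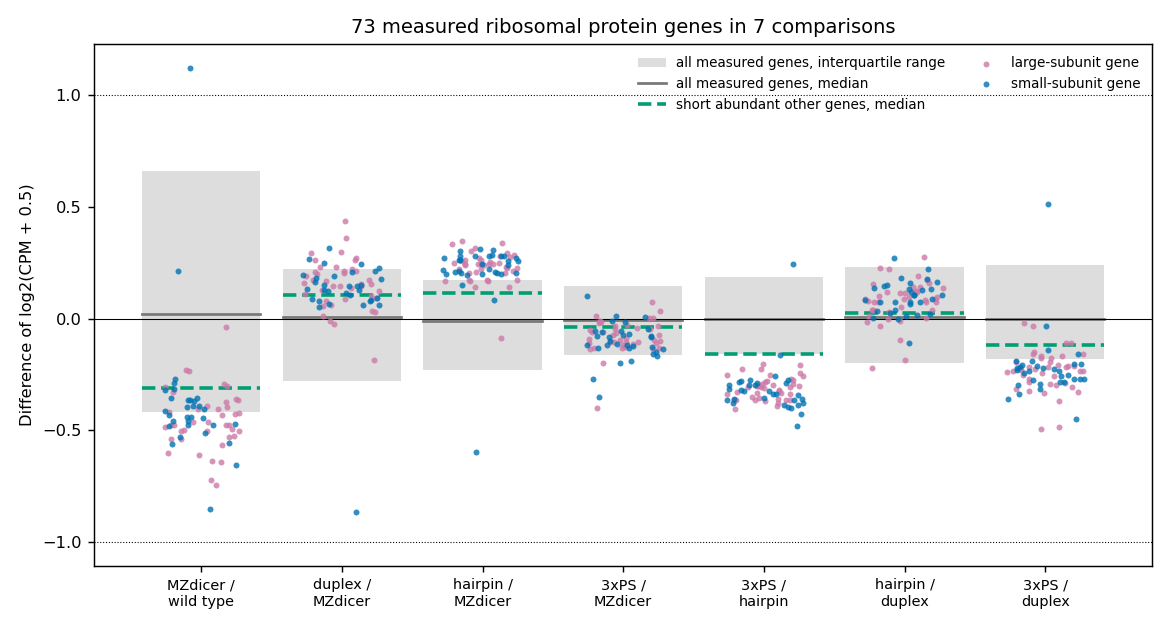
Difference of log2(CPM + 0.5) (y axis) of the 73 measured genes in each of the 7 comparisons (x axis, first-named library minus the second); points are genes, coloured by subunit, grey boxes and lines are the interquartile range and median of all 14097 measured genes, dashed green lines the median of 242 short abundant other genes, and dotted lines mark 2-fold. The points sit in a tight band below 0 in MZdicer against wild type (median -0.44) and above 0 for the hairpin against MZdicer (median 0.24).

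Of the 73 genes, 8 were at least 1.5-fold lower in MZdicer, a smaller share than the 16.6% of all measured genes. Their number is therefore no result about the set, and they are named here as its lowest genes. Among them rpl36al, a large-subunit protein near the exit site for tRNA, was 1.68-fold lower (interval 1.60 to 1.76), at 151 CPM in MZdicer, against 253 CPM in wild type. The stalk base protein rplp0 was 1.65-fold lower (1.60 to 1.70), at 378 CPM in MZdicer, against 625 CPM in wild type. The small-subunit head protein rps20 was 1.58-fold lower (1.51 to 1.65), at 183 CPM in MZdicer, against 288 CPM in wild type.

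Next came rpl3, which lies close to the peptidyl transferase centre, at 316 CPM in MZdicer, against 493 CPM in wild type (1.56-fold lower). The others were rpl4, at 532 and 811 CPM in MZdicer and wild type, and rpl12, at 526 and 799 CPM. The last pair were taken by name but do not encode subunits of the mature ribosome. These were rps19bp1, which binds the rps19 protein and is known in human as a regulator of SIRT1, 1.81-fold lower (1.67 to 1.97), and rpl7l1, a relative of rpl7 that acts in ribosome assembly, 1.56-fold lower (1.46 to 1.66).

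Nearest to wild type among the genes that were lower were rpl22l1, given further on, and rpl37 and rpl31, both on the large subunit. The first had 134 CPM in MZdicer, against 157 CPM in wild type (1.17-fold lower), and the second 138 CPM in MZdicer, against 162 CPM in wild type (1.18-fold lower).

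Among the genes not highest in wild type were rps2 and rpl31, whose hairpin library, at 164 CPM, was close to the 162 CPM of wild type. The rps2 protein lines the entry channel for mRNA on the small subunit. Its level was 304 CPM with the 3xPS hairpin, 384 with the hairpin, 415 with the duplex, 333 in MZdicer and 287 in wild type. It was thus lowest in wild type and highest with the duplex, and MZdicer was 1.16-fold above wild type (1.12 to 1.2).

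The rpl22l1 gene encodes a paralog of rpl22, and both proteins are known to bind RNA beyond the ribosome. Its level was 27.1 CPM with the 3xPS hairpin, 33.8 with the hairpin, 31.5 with the duplex, 35.9 in MZdicer and 36.9 in wild type. The interval of the ratio of MZdicer to wild type was 0.875 to 1.08, which holds equality, so a difference was not detectable at this depth. Its partner rpl22 had 56.7 CPM with the 3xPS hairpin, 71.7 with the hairpin, 71.5 with the duplex, 62.1 in MZdicer and 90.5 in wild type. The counts of rpl22l1 were 57.8% of those of rpl22 in MZdicer (51.9 to 64.4) and 40.7% in wild type (37.7 to 44.0), and the 2 intervals do not overlap.

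**Figure D4:**
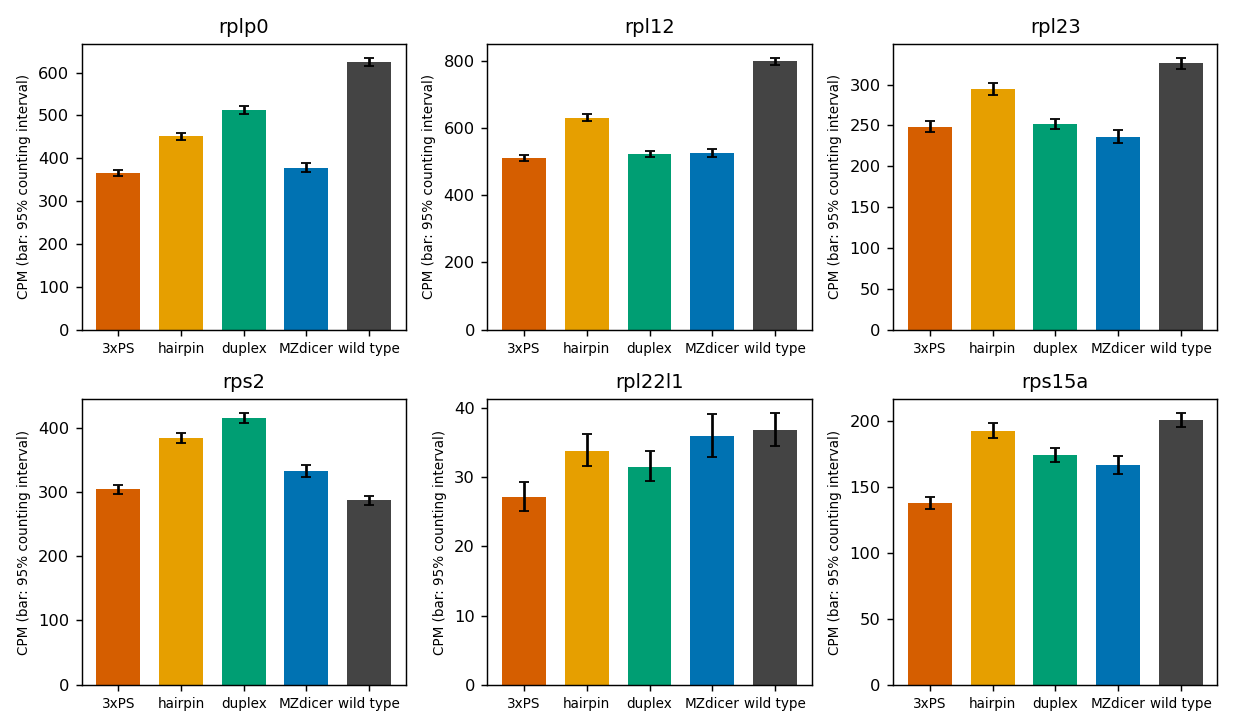
CPM (y axis, starting at 0) of 6 genes in the 5 libraries (x axis), with 95% exact Poisson intervals of the counts as error bars. In the top row rplp0, rpl12 and rpl23 are highest in wild type and differ in where the duplex stands, and in the bottom row rps2 is lowest in wild type, rpl22l1 is nearly level between MZdicer and wild type, and rps15a is lowest with the 3xPS hairpin.

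With a miR-430 hairpin the ribosomal protein genes stood above uninjected MZdicer. The median log2 ratio was 0.24, with 71 of 73 genes higher, a direction held by 48.6% of all measured genes. None was called higher or lower at 2-fold, against 0.489% and 1.99% of all measured genes, while at 1.2-fold 22 were higher and 1 lower, against 11.5% and 16.7%. At 1.5-fold 1 was lower, against 6.99% of all measured genes. The 242 short abundant other genes had a median of 0.11, so the direction was shared by them.

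Among the genes with the highest ratio were rpl10a, rpl36al, rplp1 and rpl23. For rpl10a, a protein of the stalk on the other side of the large subunit, the hairpin library had 258 CPM and MZdicer 202 CPM (1.27-fold higher, 1.22 to 1.33). For the acidic stalk protein rplp1 they had 313 and 248 CPM. At the low end rps16 had 133 CPM with the hairpin and 125 CPM in MZdicer. Both values lie close together relative to those of the genes above.

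The duplex library showed a smaller and less even shift. Its median log2 ratio to MZdicer was 0.15, with 69 of 73 genes higher, a direction held by 50.8% of all measured genes, and the SD over the genes was 0.152 for the duplex and 0.116 for the hairpin, or 0.0944 and 0.0631 without the gene called in MZdicer against wild type. At 2-fold 0 genes were called in either direction, against 1.5% of all measured genes called higher and 6.0% called lower. At 1.2-fold 9 genes were higher and 1 lower, against 16.7% and 21.3%. At 1.5-fold 1 was lower, against 12.6%. The 9 higher at 1.2-fold were rplp0, rpl7l1, rps2, rplp1, rpl35, rpl34, rps4y2, rpl36al and the rpl5 gene ENSDARG00000020197. The 242 short abundant other genes had a median of 0.11 with 73.1% higher, so the direction was shared by them.

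Genes of the stalk and its base did not all place the duplex and the hairpin in 1 order. For rplp0 the duplex library had 512 CPM, the hairpin library 451 CPM and MZdicer 378 CPM. Both were above MZdicer, and the duplex was the higher. For rpl12, which sits beside rplp0, the hairpin library had 631 CPM, the duplex library 522 CPM and MZdicer 526 CPM. Here the hairpin was above MZdicer and the duplex level with it, the ratio of duplex to MZdicer having an interval of 0.964 to 1.02. A like pattern held for rplp2l, with 165 CPM for the hairpin, 145 for the duplex and 147 in MZdicer. For rplp1 they were close, with 313 CPM for the hairpin, 305 for the duplex and 248 in MZdicer.

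Directly between the hairpin and the duplex, the median log2 ratio was 0.09, with 64 of 73 genes higher, against 51.3% of all measured genes. The 2102 genes with a mean of at least 100 CPM, most of the set among them, had a median of -0.060 with 60.3% lower. Their median length was 2825.5 bases, against 745 for the 73 genes, so they were not matched in length. Against MZdicer, the 242 short abundant other genes had medians of 0.115 with the hairpin and 0.108 with the duplex. No gene was called at 2-fold, against 2.24% of all measured genes called higher and 0.802% called lower, and at 1.2-fold rpl12 alone was higher, against 18.5% higher and 15.8% lower over all measured genes. Those lower with the hairpin were led by rpl7l1 (1.17-fold lower), rplp0 (1.14-fold lower) and rps2 (1.08-fold lower).

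The 3xPS hairpin differs from the hairpin by 3 phosphorothioates, a sulfur in place of an oxygen in the backbone of the RNA, at the same dose, and this pair compares related molecules directly. The median log2 ratio of the 3xPS hairpin to the hairpin was -0.32, with 72 of 73 genes lower, a direction held by 50.0% of all measured genes. At 2-fold 0 genes were called, against 0.497% of all measured genes called higher and 0.149% called lower. At 1.2-fold 62 of 73 were lower and 0 higher, against 9.04% and 13.8% of all measured genes. The short abundant other genes had a median of -0.16 with 90.1% lower, so the direction was not that of the ribosomal protein genes alone. The shift was larger in the ribosomal protein genes, but these were also shorter, with a median of 745 bases against 1154.5. The part of length in that difference was not tested.

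The lowest ratio was that of rps15a, a small-subunit protein, at 138 CPM with the 3xPS hairpin and 192 CPM with the hairpin (1.40-fold lower, 1.34 to 1.46). Among those lower, rps28 was nearest to level, at 137 CPM with the 3xPS hairpin and 153 CPM with the hairpin (1.12-fold lower, 1.07 to 1.17).

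Against uninjected MZdicer the genes stood slightly lower in the 3xPS hairpin library. The median log2 ratio was -0.09, with 65 of 73 genes lower, a direction held by 51.4% of all measured genes, and 0 were called at 2-fold, against 0.454% of all measured genes called higher and 1.09% called lower. At 1.2-fold 2 were lower and 0 higher, against 10.8% and 9.14%. The 2 were rpl22l1, at 27.1 CPM with the 3xPS hairpin and 35.9 CPM in MZdicer (1.32-fold lower, 1.18 to 1.48), and rps15a, at 138 CPM with the 3xPS hairpin and 166 CPM in MZdicer (1.21-fold lower, 1.15 to 1.27). The 242 short abundant other genes had a median of -0.035 with 65.3% lower, so the direction was shared by them.

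Against the duplex the 3xPS hairpin was lower in 72 of 73 genes, with a median of -0.23, a direction held by 50.2% of all measured genes. At 2-fold 0 genes were called, against 3.35% of all measured genes called higher and 0.582% called lower, and at 1.2-fold 25 were lower and 1 higher, against 13.6% and 19.2%. The lowest were rpl7l1 (1.41-fold lower), rplp0 (366 CPM with the 3xPS hairpin and 512 CPM with the duplex, 1.40-fold lower) and rps2 (304 and 415 CPM). Against MZdicer, the 242 short abundant other genes had medians of -0.035 with the 3xPS hairpin and 0.108 with the duplex. The 3 comparisons with MZdicer share its library, as those with the hairpin and the duplex share theirs, so their values are set side by side and are not independent.

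Other copies among the set held steadier proportions. The rpl5 gene ENSDARG00000020197 had 28.3% of the counts of the rpl5 gene ENSDARG00000015862 with the 3xPS hairpin, 26.6% with the hairpin, 29.9% with the duplex, 28.0% in MZdicer and 30.3% in wild type. Between rps27.2 and rps27.1 the proportion was 79.7% with the 3xPS hairpin, 76.5% with the hairpin, 81.4% with the duplex, 73.8% in MZdicer and 80.5% in wild type. For the 2 rps26 genes it was 61.1% to 66.8% over the libraries. The minor member of each pair was thus the same in all 5 libraries.

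Genes that act on ribosomes before they are mature had a lower median in MZdicer than the subunits did. Of 99 symbols listed for ribosome biogenesis, 78 were measured, and their median log2 ratio in MZdicer against wild type was -0.66, with 14 called lower at 2-fold and 0 higher, against 5.81% and 16.3% of all measured genes. At the low end stood gnl3l, a nucleolar GTPase, at 13.3 CPM in MZdicer, against 41.5 CPM in wild type, and riok2, a kinase of small-subunit maturation, at 27.0 and 76.0 CPM. The duplex gave these genes a median of 0.33 over MZdicer, with tsr1, a factor of small-subunit assembly, the 1 gene called higher (185 CPM with the duplex, against 87.1 CPM in MZdicer) and 0 called lower, a share of higher calls near the 1.5% of all measured genes. The hairpin gave them 0.10 over MZdicer, with 0 called higher or lower, against 0.489% and 1.99% of all measured genes.

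The order of the duplex and the hairpin was therefore not the same in both sets of genes. Between the hairpin and the duplex the biogenesis genes had a median of -0.24, with 70 of 78 lower, a direction held by 48.7% of all measured genes, while the ribosomal protein genes had 0.09. All genes with a mean of at least 100 CPM had -0.060 there. The median length was 2031 bases for the biogenesis genes and 745 for the 73 ribosomal protein genes. The part of length in this difference was not tested. With the 3xPS hairpin the biogenesis genes were at -0.01 against MZdicer and at -0.09 against the hairpin.

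Translation factors and other TOP mRNAs, 23 genes measured of 37 symbols, had a median of -0.31 in MZdicer against wild type, with eif4a1b and eef1b2 called higher and 0 lower. Over all measured genes 16.3% were called higher and 5.81% lower, so these calls are no result about the list. At the low end was tpt1, a classic TOP mRNA, at 729 CPM in MZdicer, against 1137 CPM in wild type. The helicase gene eif4a1b had 112 CPM in MZdicer, against 55.8 CPM in wild type. The exchange factor gene eef1b2, which serves elongation factor eef1a, had 395 CPM with the 3xPS hairpin, 478 with the hairpin, 164 with the duplex, 492 in MZdicer and 157 in wild type. It was low with the duplex and in wild type and high in the other 3 libraries. The 3xPS hairpin gave the list a median of -0.15 against the hairpin.

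**Figure D5:**
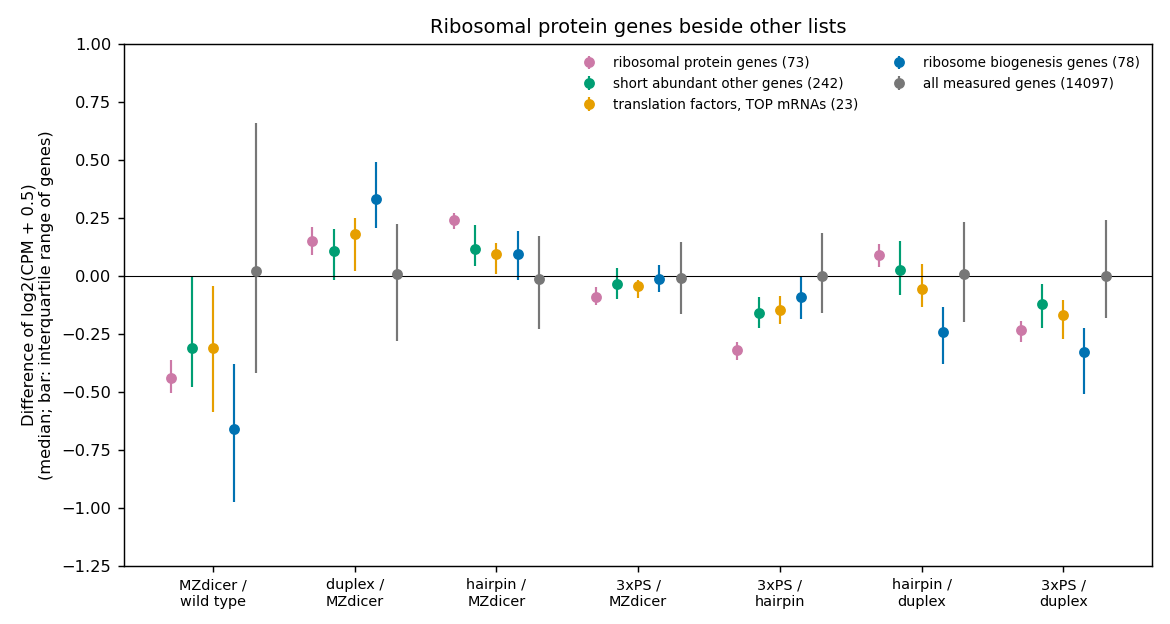
Median difference of log2(CPM + 0.5) (y axis, points) with the interquartile range (bars) for 5 sets of genes in the 7 comparisons (x axis). The ribosomal protein genes have the highest median of the 5 sets for the hairpin against MZdicer (0.24), while for the duplex against MZdicer the biogenesis genes do (0.33).

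Ribosomal proteins that carry other names followed in part. The small-subunit scaffold rack1 had 463 CPM with the 3xPS hairpin, 577 with the hairpin, 519.5 with the duplex, 478 in MZdicer and 629.6 in wild type. It shows the order seen in most of the set. In contrast faub, a ubiquitin-like fusion that yields the small-subunit protein eS30, had 58.2 CPM with the 3xPS hairpin, 65.5 with the hairpin, 53.2 with the duplex, 58.1 in MZdicer and 35.4 in wild type, and was lowest in wild type.

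The summed levels of stage markers also differed between libraries. The 9 shield-stage genes summed to 4751 CPM with the 3xPS hairpin, 5230 with the hairpin, 5842 with the duplex, 4926 in MZdicer and 7856 in wild type. They were found among 17 symbols listed, and their sum rested largely on krt4 and krt5, at 3085 and 2007 CPM in wild type. The 9 oocyte and maternal genes summed to 589 CPM with the 3xPS hairpin, 588 with the hairpin, 474 with the duplex, 732 in MZdicer and 440 in wild type. Neither list moved as one, since in MZdicer against wild type 2 of the 9 shield-stage genes were higher and 7 lower, and 5 of the 9 oocyte and maternal genes were higher and 4 lower. Their part in the levels of the ribosomal protein genes was not tested. In whole embryos, fewer cells of a type and less RNA per cell cannot be told apart.

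The deposited tables hold a further column that adds reads assigned to several genes. It exceeded the main column by more than 1% for 1 of the 73 measured genes, against 14.9% of all measured genes. Apart from these stood rps11l, which did not pass the filter, with 6 counts with the 3xPS hairpin, 9 with the hairpin, 7 with the duplex, 4 in MZdicer and 3 in wild type.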

How the data were processed

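RNA-seq libraries of 5 groups, 1 library each, were analysed. Per the submitters' processing notes, CASAVA 1.8.2, TopHat2 2.0.8 and the build Zv9 (danRer7) were used; the program that counted reads is not given in the sources used here. The deposited tables give per gene 1 column of whole-number counts, the main measurement, and columns of estimated counts that add reads assigned to several genes. They also give RPKM by the authors, which for the main column was recomputed from counts, length and column total. RPKM was used for levels between genes.

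From the counts, TMM factors (edgeR 4.0.16 in R 4.3.3) lay between 0.967 and 1.02. Genes with a mean CPM of at least 1 count as measured. Log2 ratios use log2(CPM + 0.5) and so come out too small for low genes; folds use CPM with nothing added. Calls needed 2-fold and a 95% exact conditional binomial interval of the 2 counts without equality. Without molecular identifiers, PCR copies count as separate reads, and intervals cover counting error only. The calls were tested on simulated data: of 100 genes set 2.83-fold apart, 90 to 96 were called in the 7 comparisons. The simulated counts held counting error only, with no difference between embryos or libraries, so they cannot show how calls fare against such differences. Smaller folds were not simulated.

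Symbols were found for 18804 of 26158 identifiers. The genes of the set, the pathway and marker lists and the thresholds were chosen with earlier results of these data known. Named genes are the 5 highest and 5 lowest of the set in each comparison and by mean RPKM, called genes, stalk genes, copies of a pair and genes under the filter, and from each pathway list the 3 highest and 3 lowest. Alternatives tried were other scaling (total counts, DESeq2 1.42.0 size factors, upper quartile, TMM without the set or from short genes), filters, pseudocounts, count column, RPKM, thresholds, thinning to the smallest library, and the set without rps19bp1 and rpl7l1. The values of 3 genes of the set and of 1 listed gene are not reported here. Promoter and protein sequences were not analysed here.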

Additional observations from a re-analysis of the deposited data

Results flagged for a closer look

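In the deposited column that adds reads assigned to several genes, outside the main measurement, rps11l was above the limit that a count of 0 allows (3 counts). It held 43.5 counts with the 3xPS hairpin, 45.5 with the hairpin, 51.0 with the duplex, 24.5 in MZdicer and 60.5 in wild type. In the main column it held 3 to 9 counts.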

How the results depend on the processing

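The medians of the 73 genes kept their direction in all 7 comparisons under every alternative run, and no called value changed sign. Total counts gave medians of -0.38 (MZdicer against wild type), 0.27 (hairpin against MZdicer), -0.34 (3xPS hairpin against hairpin) and 0.12 (hairpin against duplex), and RPKM gave -0.38, 0.27, -0.34 and 0.12 for the same comparisons. DESeq2 size factors gave -0.49 in MZdicer against wild type. Upper-quartile factors, which put the median of all genes at -0.17 there, gave -0.64, with 0 genes called higher and 1 lower, and 0.24 (duplex against MZdicer), 0.27 (hairpin against MZdicer), -0.34 (3xPS hairpin against hairpin), 0.027 (hairpin against duplex) and -0.32 (3xPS hairpin against duplex). TMM factors from genes of at most 1500 bases, added after seeing the data, gave -0.30 (MZdicer against wild type), 0.11, 0.18 and -0.061 (duplex, hairpin and 3xPS hairpin against MZdicer), -0.23 (3xPS hairpin against hairpin), 0.065 (hairpin against duplex) and -0.17 (3xPS hairpin against duplex). The 1 call in MZdicer against wild type was lost (0 higher) with a mean CPM of at least 10, with a pseudocount of 1 or with libraries thinned to the smallest total; with a pseudocount of 0.1, 1 gene was called lower with the duplex against MZdicer. At 1.5-fold 8 genes were lower in MZdicer against wild type, 1 with the duplex and 1 with the hairpin against MZdicer. Over all measured genes these shares were 16.6%, 12.6% and 6.99%. The 1.2-fold counts, added after seeing the data, follow with the share of all measured genes in brackets. In MZdicer against wild type 68 were lower (30.6%). Against MZdicer, 9 were higher (16.7%) and 1 lower (21.3%) with the duplex. With the hairpin 22 were higher (11.5%) and 1 lower (16.7%), and with the 3xPS hairpin 2 were lower (10.8%). For the 3xPS hairpin against the hairpin 62 were lower (9.04%). For the hairpin against the duplex 1 was higher (18.5%). For the 3xPS hairpin against the duplex 1 was higher (19.2%) and 25 lower (13.6%). The share of counts was 1.44%, 1.83%, 1.70%, 1.52% and 1.999% in the 3xPS hairpin, hairpin, duplex, MZdicer and wild-type libraries with the column that adds shared reads, and 1.48%, 1.86%, 1.73%, 1.55% and 2.04% without rps19bp1 and rpl7l1. The cause of these shifts was not tested. Leaving out a library was not possible with 1 library per group. No paired analysis was possible because each group has 1 library.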
